A study of Bos taurus with 15 samples.

Results

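The Kunitz-type protease inhibitors SPINT1 and SPINT2, the serine proteases ST14, PRSS8 and TMPRSS2, the growth factor HGF and its receptor MET were examined in pools of bovine blastocysts. These 7 genes were taken by their symbols and NCBI gene identifiers from the read count tables of the study. The table that the authors filtered for low counts holds 10832 genes and 5 of the 7 members, which are SPINT1 (gene 534040), SPINT2 (gene 507484), ST14 (gene 767617), PRSS8 (gene 613506) and MET (gene 280855). TMPRSS2 (gene 511037) and HGF (gene 282879) were found only among the 34773 genes of the unfiltered table.

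SPINT1 and SPINT2 encode hepatocyte growth factor activator inhibitors type 1 and type 2, which are anchored in the membrane of epithelial cells and block trypsin-like serine proteases. Among the proteases that they restrain are matriptase (ST14) and prostasin (PRSS8), which sit on the same cells and can take part in activating each other. HGF is secreted as an inactive precursor that serine proteases cleave, and the cleaved form binds the receptor tyrosine kinase MET. In the mouse, the inhibitors are known for their requirement in the placenta and in epithelial integrity, and the trophectoderm of a blastocyst is the epithelium from which the placenta derives.

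Embryos of Bos taurus produced in vitro were cultured without extracellular vesicles of the oviduct (oEVs) as control (Co), with fresh oEVs (FeEV) or with oEVs that had been frozen (FoEV), and 5 libraries were sequenced per treatment. Each library came from 1 ng of total RNA of a pool of 8 to 14 embryos, and the 15 libraries were those chosen for RNA quality and concentration among more pools. The oEVs came from oviducts of postovulatory cows collected at a slaughterhouse, and both oEV treatments used vesicles of the same oviducts. The sample labels give day 7 blastocysts, whereas the methods give 8 days of culture, and libraries are numbered here by the replicate number in their titles. No source says that the pools of a treatment came from separate cultures or semen donors, so that the p-values measure the spread between pools.

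The gene counts of a library added up to between 2136713 and 4058887 reads, and the shallowest FoEV library (3392613) was deeper than the deepest Co library (2977004). Levels are given as counts-per-million (CPM) of the reads on genes of the filtered table, scaled between libraries by TMM. They are not divided by transcript length, so that levels were compared between libraries but not between genes. Reads were counted on all 4 inner cell mass markers and all 8 trophectoderm markers, the cells that make up a blastocyst. Summed markers of oviduct epithelium, the tissue that the vesicles came from, ranged from 5.20 to 13.9 CPM over all libraries. Of its 4 markers, PAX8 alone was in the filtered table, with means of 9.65, 7.12 and 8.40 CPM in Co, FeEV and FoEV. OVGP1 had means of 0.825, 0.465 and 0.760 CPM, and FOXJ1 and MSLN were lower still. Markers of cumulus and granulosa cells summed to between 21.8 and 44.2 CPM and those of sperm and testis to between 0.838 and 13.0 CPM. Of the 4 cumulus and granulosa markers, CYP19A1 and FSHR were in the filtered table. Their means in Co, FeEV and FoEV were 17.9, 21.1 and 25.1 CPM for CYP19A1 and 10.5, 7.12 and 8.50 CPM for FSHR. In the same order, PTX3 had 0, 1 and 0 reads in all, and TNFAIP6 had 7, 1 and 5.

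The inhibitor SPINT2 had the lowest adjusted p of the 5 members of the filtered table in FoEV vs. Co. In the 5 Co libraries, its level was 104, 108, 104, 86.7 and 108 CPM. In the FeEV libraries, it was 103, 111, 116, 106 and 114 CPM. In the FoEV libraries, it was 134, 122, 129, 142 and 124 CPM. Thus, every FoEV library was above every Co library and every FeEV library, whereas Co and FeEV overlapped. Its mean level was 130.4 CPM ± 8.21 in FoEV, beside 102 CPM ± 8.75 in Co and 110.1 CPM ± 5.51 in FeEV (SD over 5 libraries). These levels rest on 216 to 321 reads per Co library, 232 to 409 per FeEV library and 426 to 580 per FoEV library.

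Compared to Co, SPINT2 was 1.28-fold higher in FoEV (95% interval 1.13 to 1.44), which is a log2 fold change of 0.35 with a standard error of 0.085. With the quasi-likelihood test of edgeR and Benjamini-Hochberg adjustment over the 10832 genes, this difference did not pass the threshold of 0.05 (adjusted p = 0.0898). In this comparison, 1 gene passed, which is 0.00923% of the genes tested, and 48 genes had a lower adjusted p than SPINT2. The call depended on the test. The Wald test of DESeq2 gave SPINT2 an adjusted p of 0.00844 with 2.4% of 6002 genes called, and the likelihood ratio test of edgeR with the robust dispersion that is named in the methods gave 0.0132 with 2.87% of the genes called. Among all genes, 1.26% had every FoEV library above every Co library, as SPINT2 did. Leaving out Co library 4, the lowest in SPINT2, lowered the log2 fold change to 0.30 and gave an adjusted p of 0.283 with the quasi-likelihood test of edgeR.

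Compared to FeEV, SPINT2 was 1.18-fold higher in FoEV, with a log2 fold change of 0.24 and a 95% interval of 0.066 to 0.42. Its adjusted p was 0.496 with the quasi-likelihood test of edgeR, and 0% of the genes passed (3 with DESeq2 and 31 with robust dispersion), whereas 8.52% had an unadjusted p under 0.05. SPINT2 was among the latter, and 0.757% of all genes had every FoEV library above every FeEV library. Between FeEV and Co, the log2 fold change of SPINT2 was 0.11, and its 95% interval from -0.067 to 0.29 included 0 (edgeR adjusted p = 1.00). In that comparison, 0% of the genes passed with the quasi-likelihood test of edgeR, 1 with DESeq2 and 6 with robust dispersion, and 4.15% had an unadjusted p under 0.05. FoEV vs. Co and FeEV vs. Co share the 5 Co libraries, and FoEV vs. FeEV shares libraries with both.

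**Figure D1:**
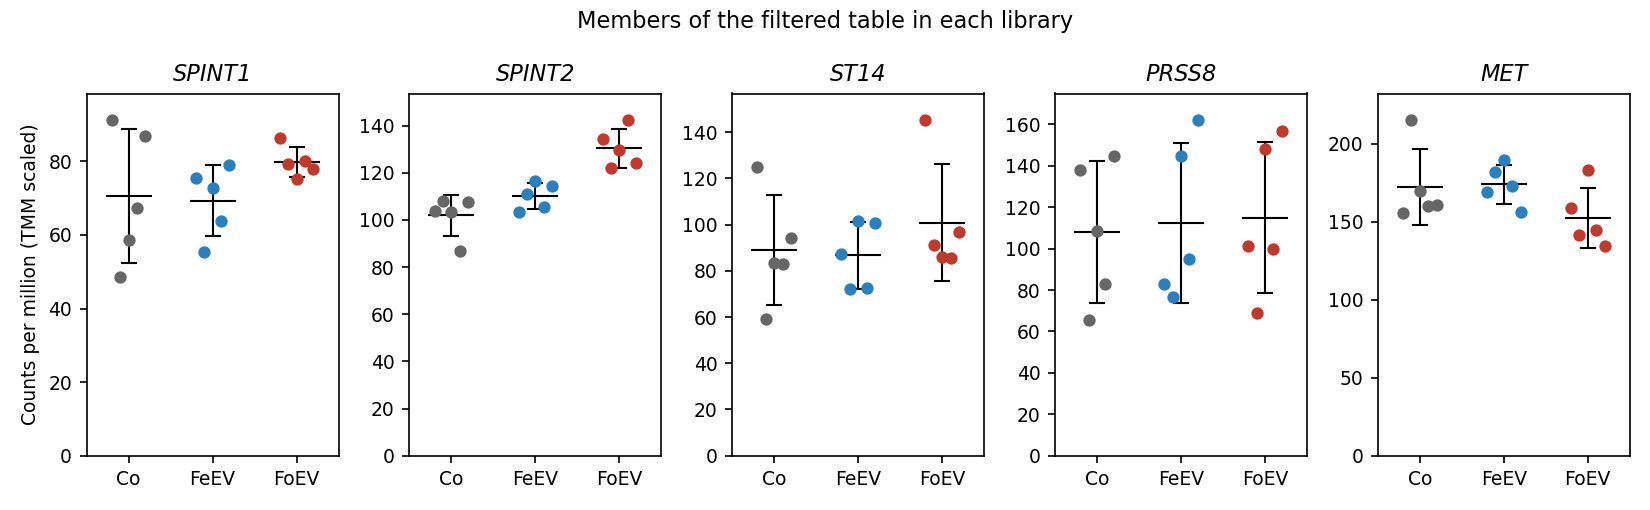
Level of the 5 members of the filtered table in each of 15 libraries, in CPM scaled by TMM, with 5 points per treatment in the order of the replicate numbers, the mean as a horizontal bar and the SD as error bars. The 5 FoEV points of SPINT2 lie between 122 and 142 CPM, above all Co and FeEV points, whereas the treatments overlap in the other 4 genes.

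The higher level of SPINT2 in FoEV came together with higher levels of trophectoderm markers and with deeper sequencing. All 7 trophectoderm markers tested had higher fitted levels in FoEV than in Co, 4 of them with an unadjusted edgeR p under 0.05, a mark that 8.18% of all genes reached in that direction. KRT18, a keratin of simple epithelia, had the largest log2 fold change of the 7, 0.55 (edgeR adjusted p = 0.0818), the median was 0.21 and the lowest 0.088 (TEAD4). These markers and also NANOG and KRT8 were singled out after their values were seen. All 7 tested trophectoderm markers had higher fitted levels in FeEV than in the same Co libraries as well. Their median there was 0.12, and none had an unadjusted edgeR p under 0.05. All 7 were also higher in FoEV than in FeEV (median 0.098), KRT18 alone with an unadjusted edgeR p under 0.05. Among all 10832 genes, 5665 were higher in FoEV than in Co, and 5528 were higher in FeEV than in Co. The summed level of the 8 trophectoderm markers ranged from 6441 to 8679 CPM in Co, from 7040 to 10484 CPM in FeEV and from 8355 to 11274 CPM in FoEV, and no defining marker was at 0 in all libraries. Inner cell mass markers summed to between 330 and 436 CPM in Co and between 314 and 505 CPM in FoEV. Of the 4 markers, NANOG, a transcription factor of pluripotent cells, was lower than in Co at an unadjusted edgeR p under 0.05 in FoEV and in FeEV. The other 3 did not reach this mark. In FoEV vs. Co, POU5F1 had a log2 fold change of 0.21, KLF4 0.046 and SOX2 -0.030, with a median of 0.0082 over the 4 markers. In FeEV vs. Co, these 3 had 0.13, -0.17 and -0.32, with a median of -0.25 over the 4 markers. NANOG had 80.4 CPM ± 19.9 in Co, 52.1 CPM ± 13.2 in FeEV and 45.0 CPM ± 16.7 in FoEV, with log2 fold changes of -0.84 in FoEV vs. Co (edgeR adjusted p = 0.178) and -0.62 in FeEV vs. Co (edgeR adjusted p = 1.00). Hypoblast markers summed to between 497 and 756 CPM in Co and between 518 and 652 CPM in FoEV.

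The sum of the trophectoderm markers was mostly the keratins KRT8 and KRT18, with 4266 and 2684 CPM in Co and 5088 and 3929 CPM in FoEV. The log2 fold change of SPINT2 (0.35) was above the median of these markers (0.21). Set against their sum, and thus mainly against both keratins, the means of SPINT2 differed between treatments by less than the SD between libraries. Per 1000 CPM of these markers, SPINT2 had 13.5 CPM ± 1.61 in FoEV, beside 13.6 CPM ± 1.32 in Co and 12.9 CPM ± 1.82 in FeEV (SD, n = 5), with ranges of 11.9 to 15.8, 12.4 to 15.8 and 10.9 to 15.8. On the same scale, MET had 15.8 CPM ± 2.01 in FoEV, beside 23.2 CPM ± 5.26 in Co and 20.5 CPM ± 3.95 in FeEV. These ratios were computed after the levels had been seen and were not tested, and the part of the markers in the difference of SPINT2 was not tested. In pools of whole embryos, fewer cells of a type and less RNA per cell cannot be told apart. With all libraries thinned to the same number of counts, the log2 fold change of SPINT2 between FoEV and Co was 0.36 (edgeR adjusted p = 0.119).

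SPINT1, the other membrane-anchored inhibitor, was spread more widely over the Co libraries, with 91.2, 48.6, 58.7, 67.4 and 87.0 CPM. The FeEV libraries had 75.4, 55.3, 72.9, 63.8 and 79.1 CPM of SPINT1. The FoEV libraries had 86.4, 79.2, 75.2, 80.1 and 78.0 CPM, within the range of Co. Means were 79.8 CPM ± 4.12 in FoEV, beside 70.6 CPM ± 18.2 in Co and 69.3 CPM ± 9.63 in FeEV (SD, n = 5). SPINT1 had a log2 fold change of 0.18 between FoEV and Co (95% interval -0.11 to 0.47, edgeR adjusted p = 0.553) and of 0.20 between FoEV and FeEV (interval -0.088 to 0.49, edgeR adjusted p = 0.686). In FeEV vs. Co, it was -0.017 (interval -0.31 to 0.28, edgeR adjusted p = 1.00). Without Co library 1, the highest in SPINT1, the log2 fold change between FoEV and Co was 0.29 (edgeR adjusted p = 0.284), and without Co library 2, the lowest, it was 0.072 (edgeR adjusted p = 0.846). Without Co library 3 it was 0.12, and FoEV vs. FeEV gave 0.13 without FeEV library 2.

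The spread of SPINT1 between libraries of a treatment was 5.17% of the mean in FoEV, beside 25.8% in Co and 13.9% in FeEV, where counting error alone at these read numbers, as if each read were a separate molecule, gives 5.80%, 7.23% and 6.87%. For SPINT2, the spread was 6.30%, 8.58% and 5.01%, beside counting errors of 4.55%, 5.97% and 5.49%. Whether the spread itself differed between treatments was not tested.

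Of the reads counted on both inhibitors, SPINT2 took 62.0% ± 1.504 in FoEV, beside 59.5% ± 6.62 in Co and 61.5% ± 3.44 in FeEV (SD, n = 5). Co library 1 had the lowest share, 53.3% (95% Wilson interval 49.0% to 57.5%), and Co library 2 the highest, 69.0% (64.6% to 73.0%). Hence, both extremes were Co libraries, and their intervals, which cover counting error only, did not overlap.

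Among the proteases, matriptase (ST14), a transmembrane protease of epithelia and a main target of both inhibitors, overlapped between the treatments. Its level was 125.1, 59.4, 83.2, 83.1 and 94.4 CPM in the Co libraries. The FeEV libraries had 87.3, 72.0, 102, 72.4 and 101 CPM. In the FoEV libraries, it was 145, 91.1, 86.0, 85.5 and 96.8 CPM, so that FoEV library 1 stood above all others and the remaining 4 lay within the range of Co. The means were 89.0 CPM ± 23.9, 86.9 CPM ± 14.5 and 100.9 CPM ± 25.2 in Co, FeEV and FoEV (SD, n = 5). FoEV vs. Co gave a log2 fold change of 0.19 (95% interval -0.20 to 0.57, edgeR adjusted p = 0.658) and FoEV vs. FeEV gave 0.21 (interval -0.17 to 0.60, edgeR adjusted p = 0.738). Without FoEV library 1, these log2 fold changes were 0.015 and 0.043. FoEV vs. Co gave 0.34 without Co library 1, the highest Co library, and 0.069 without Co library 2, the lowest. FeEV vs. Co gave -0.028 (interval -0.42 to 0.36, edgeR adjusted p = 1.00).

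PRSS8 encodes prostasin, a membrane-anchored protease that activates epithelial sodium channels. The Co libraries had 138, 65.5, 109, 83.1 and 145 CPM of PRSS8. The FeEV libraries had 82.9, 76.9, 145, 95.2 and 162 CPM. The FoEV libraries had 101, 69.1, 148, 99.8 and 157 CPM. The lowest library had 65.5 CPM in Co, 76.9 CPM in FeEV and 69.1 CPM in FoEV and the highest 145, 162 and 157 CPM, so that the treatments overlapped over nearly all of their range. In each treatment, library 2 was the lowest and library 5 the highest. With means of 108.1 CPM ± 34.3, 112 CPM ± 38.6 and 115 CPM ± 36.7 (SD, n = 5), PRSS8 varied by 31.7% to 34.3% of the mean, the largest relative spread of the 5 members of the filtered table. The log2 fold changes were 0.092 (FoEV vs. Co), 0.065 (FeEV vs. Co) and 0.027 (FoEV vs. FeEV), with edgeR adjusted p of 0.907, 1.00 and 0.987. Their 95% intervals reached from -0.53 to 0.72 for FoEV vs. Co, from -0.57 to 0.69 for FeEV vs. Co and from -0.60 to 0.65 for FoEV vs. FeEV. With the replicate number as a block, the log2 fold change in FoEV vs. Co was 0.076 (edgeR adjusted p = 0.783). Its standard error was then 0.12, beside 0.29 without the block.

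TMPRSS2, a transmembrane serine protease known from prostate and airway epithelium, was close to the limit of detection. Its read counts were 6, 2, 5, 6 and 12 in the Co libraries, 3, 0, 2, 1 and 8 in the FeEV libraries and 7, 3, 3, 1 and 4 in the FoEV libraries. Altogether, 31 reads were counted in Co, 14 in FeEV and 18 in FoEV, although FoEV had the highest median depth. The means were 2.36 CPM ± 1.58, 0.842 CPM ± 0.844 and 0.926 CPM ± 0.474 (SD, n = 5), and the treatments overlapped. The differences from Co were -1.44 CPM for FoEV (two-sided exact permutation test, p = 0.0714, adjusted over 6 comparisons 0.238) and -1.52 CPM for FeEV (exact permutation p = 0.0794, adjusted 0.238). Between FoEV and FeEV, the difference was 0.084 CPM (exact permutation p = 0.849). Without Co library 2, the exact permutation p for TMPRSS2 was 0.0317 in FoEV vs. Co and 0.0476 in FeEV vs. Co, and without FeEV library 5 it was 0.0317 in FeEV vs. Co, all before adjustment. Without Co library 5, which held 12 of the 31 Co reads, the differences from Co were -0.795 CPM for FoEV (exact permutation p = 0.143) and -0.879 CPM for FeEV (exact permutation p = 0.159).

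The ligand HGF was detected at no more than 4 reads in any library. The Co libraries had 1, 4, 2, 0 and 1 reads, the FeEV libraries 1, 0, 1, 1 and 0, and the FoEV libraries 2, 0, 2, 2 and 2, with 8, 3 and 8 reads in all. Of these 15 values, a single one was above 3 reads, the limit that a count of 0 allows, so that HGF mRNA was at the edge of detection in every treatment and a difference was not detectable at this depth. Exact permutation p-values for HGF were 0.762 for FoEV vs. Co, 0.183 for FeEV vs. Co and 0.151 for FoEV vs. FeEV, with adjusted values of 0.849, 0.274 and 0.274. Before adjustment, the exact permutation p was 0.0476 for FeEV vs. Co without Co library 4 and 0.0159 for FoEV vs. FeEV without FoEV library 2. Without Co library 2, which held 4 of the 8 Co reads, the difference between FeEV and Co went from -0.341 to -0.142 CPM (exact permutation p = 0.365).

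**Figure D2:**
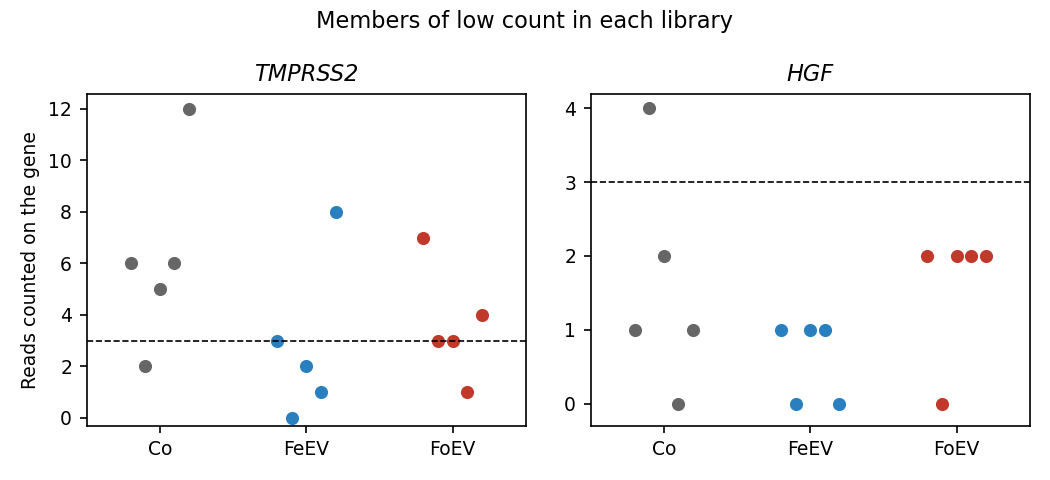
Reads counted on TMPRSS2 and HGF in each of 15 libraries, 5 per treatment, with a dashed line at the 3 reads that a count of 0 allows. TMPRSS2 reached 12 reads in a Co library and 8 in a FeEV library, and HGF exceeded the line in a Co library with 4 reads.

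In contrast to its ligand, the receptor MET was well covered, with 379 to 686 reads per library. Its level was 156, 215, 169.6, 160.1 and 160.5 CPM in the Co libraries. The FeEV libraries had 169, 182, 189, 173 and 156 CPM. The FoEV libraries had 159, 141, 183, 145 and 134 CPM, of which 3 lay below every Co library and every FeEV library. This gave means of 152 CPM ± 19.3 in FoEV, beside 172 CPM ± 24.4 in Co and 174 CPM ± 12.7 in FeEV (SD, n = 5).

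For MET, the log2 fold change was -0.18 in FoEV vs. Co (95% interval -0.39 to 0.036, edgeR adjusted p = 0.420) and -0.19 in FoEV vs. FeEV (interval -0.40 to 0.024, edgeR adjusted p = 0.606). FeEV vs. Co gave 0.012 (interval -0.20 to 0.23, edgeR adjusted p = 1.00). Without FoEV library 3, the highest of its treatment, the log2 fold change of MET was -0.26 vs. Co and -0.27 vs. FeEV, with edgeR adjusted p of 0.254 and 0.505. Without Co library 2, the highest in MET, it was -0.084 vs. Co (edgeR adjusted p = 0.743). Of the members of the filtered table, MET had a lower fitted level in FoEV than in Co and the other 4 had a higher one, while the median log2 fold change of all genes was 0.015.

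**Figure D3:**
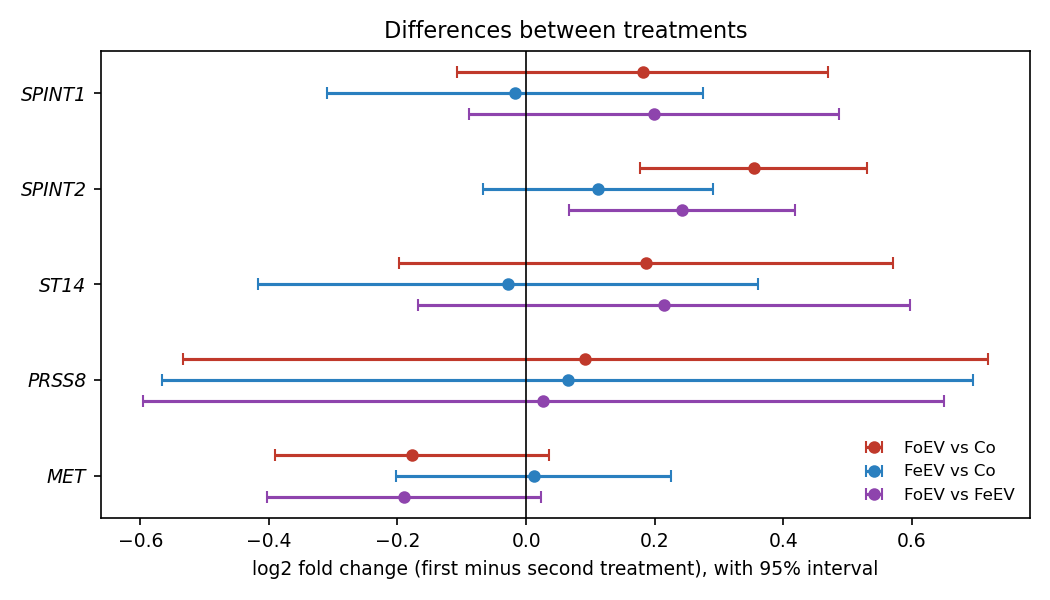
Fitted log2 fold changes of the 5 members of the filtered table in the 3 comparisons, as points with 95% intervals. The intervals of SPINT2 in FoEV vs. Co (0.18 to 0.53) and FoEV vs. FeEV (0.066 to 0.42) lie above 0, and the other intervals include 0.

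Libraries of the same treatment were then compared to find out which members varied together between pools. Deviations of log2 CPM from the treatment means were correlated over the 15 libraries for the 10 pairs of the 5 members, with 100000 permutations within treatments. SPINT1 and ST14 varied together, with Pearson's r = 0.814 (permutation p = 0.00016, adjusted over 10 relations 0.0016) and Spearman's rho = 0.814 (permutation p = 0.00097, adjusted 0.0097). Without the 2 libraries farthest from the median of SPINT1, r was 0.638. Of the 6500 other genes with a mean of at least 20 CPM, 40 (0.615%) had a higher r with SPINT1 than ST14 had. The lowest Co library in SPINT1, Co library 2, was the lowest Co library in ST14 as well, and Co library 1 was the highest Co library in both. FeEV library 2 was also the lowest FeEV library in both, whereas FoEV library 2 was the lowest FoEV library in neither. The permutations moved the libraries of each treatment separately, as if same-number libraries were unrelated. If they are related, which no source states, the permutation p-values of all pairs may be too small.

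The spread of SPINT2 within treatments, given above, was close to the counting error. Its r was 0.050 with SPINT1 and 0.12 with ST14 (permutation p = 0.923 and 0.715), its difference from the r of SPINT1 with ST14 was not tested, and 43% of the genes had a higher r with SPINT1 than SPINT2 had. SPINT1 and MET gave r = -0.607 (permutation p = 0.0133, adjusted 0.0665; rho = -0.521, adjusted permutation p = 0.170), and r was -0.307 without the 2 farthest libraries. PRSS8 gave r = 0.588 with SPINT1 (adjusted permutation p = 0.107) and r = 0.530 with ST14 (adjusted permutation p = 0.158). Apart from SPINT1 with ST14, no pair passed the adjustment by r or rho.

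**Figure D4:**
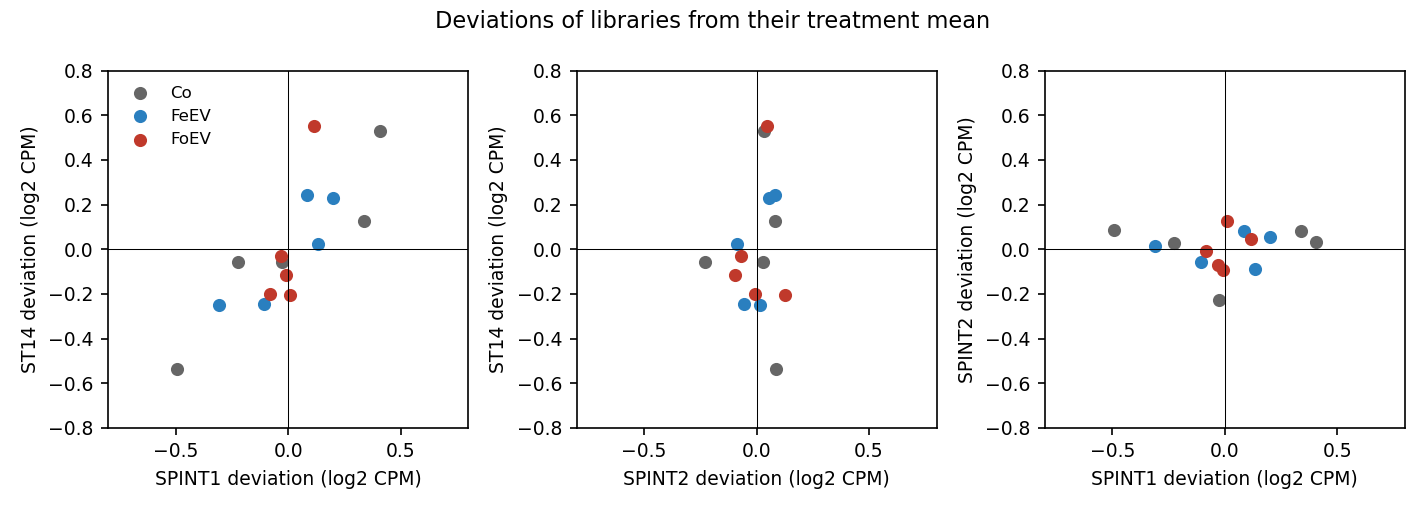
Deviation of each of 15 libraries from the mean of its treatment in log2 CPM, for SPINT1 and ST14, SPINT2 and ST14, and SPINT1 and SPINT2, coloured by treatment. The points of SPINT1 and ST14 run from the lower left to the upper right (r = 0.814), whereas SPINT2 varies less and gave r = 0.12 with ST14 and r = 0.050 with SPINT1.

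Balances between inhibitor and protease were also compared within libraries. The log2 ratio of SPINT2 to ST14 reads was 0.40 ± 0.32 in FoEV, beside 0.23 ± 0.41 in Co and 0.36 ± 0.21 in FeEV (SD, n = 5). That of SPINT1 to ST14 was -0.31 ± 0.26, -0.33 ± 0.15 and -0.32 ± 0.12. That of SPINT2 to PRSS8 was 0.24 ± 0.49, -0.026 ± 0.47 and 0.036 ± 0.43. In each ratio, the means of the treatments differed by less than the largest SD between libraries. That SD describes single libraries, and whether the means differed was not tested. The ratio of SPINT2 to PRSS8 was highest in library 2 and lowest in library 5 of each treatment.

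Other genes of the pathway were read from the same fit in 6 lists, and no list gene passed the adjusted threshold in any of the 3 comparisons with the quasi-likelihood test of edgeR. With DESeq2 or the robust dispersion, SPINT2 passed in FoEV vs. Co, and no other list gene that these tests gave an adjusted p passed in any comparison. In FoEV vs. Co, DESeq2 gave none to TFPI, PRSS22, TMPRSS4, TMPRSS11E and HRAS. Of 19 Kunitz-type inhibitors listed, 16 were matched and 6 were tested, with a median log2 fold change of 0.12 in FoEV vs. Co, of which SPINT2 was higher and TFPI lower at an unadjusted edgeR p under 0.05. TFPI, the tissue factor pathway inhibitor that restrains blood coagulation, had 9.38 CPM ± 2.24 in FoEV, beside 15.5 CPM ± 6.67 in Co and 12.3 CPM ± 2.30 in FeEV (SD, n = 5), with a log2 fold change of -0.72 in FoEV vs. Co (edgeR adjusted p = 0.214). APLP2, a relative of the amyloid precursor protein with a Kunitz domain, had the highest CPM of the list, not divided by length, with 449.8 CPM ± 49.6 in Co and 468 CPM ± 38.9 in FoEV. SPINT3 and SPINT4, named after the same domain, were at 0 in all libraries, which allows up to 0.748 to 1.42 CPM per library before scaling by TMM.

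Of 6 other inhibitors of such proteases, 4 were tested, with a median log2 fold change of 0.19 in FoEV vs. Co. A2M, the broad protease trap alpha-2-macroglobulin, had 241 CPM ± 75.0 in Co, 167 CPM ± 45.4 in FeEV and 161 CPM ± 38.8 in FoEV. Its log2 fold changes were -0.58 in FoEV vs. Co (edgeR adjusted p = 0.265) and -0.53 in FeEV vs. Co (edgeR adjusted p = 1.00). Without Co library 4, they were -0.39 and -0.34. SERPINB5, the serpin maspin, had 52.5 CPM ± 15.7 in Co and 68.6 CPM ± 9.23 in FeEV, a log2 fold change of 0.38 (edgeR adjusted p = 1.00). SERPINE2, protease nexin 1, had 74.8 CPM ± 9.76 in Co and 84.5 CPM ± 8.28 in FoEV.

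The list of membrane serine proteases held 22 genes, of which 21 were matched, 7 were at 0 in all libraries and 5 were tested. Its median log2 fold change was 0.092 in FoEV vs. Co. PRSS22, a tryptic protease of epithelia, had 27.7 CPM ± 8.93 in FoEV, beside 18.0 CPM ± 4.70 in Co and 18.8 CPM ± 2.76 in FeEV (SD, n = 5). FoEV ranged from 17.4 to 37.7 CPM and Co from 12.04 to 23.0 CPM, so that they overlapped. The log2 fold changes of PRSS22 were 0.61 vs. Co (edgeR adjusted p = 0.189) and 0.56 vs. FeEV (edgeR adjusted p = 0.501).

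The list of HGF activation, which holds HGF, its relative MST1, their receptors and activating proteases, was sparse, as 2 of 11 genes were in the filtered table, MET and PLAU. PLAU, the urokinase plasminogen activator, had 394 CPM ± 97.5 in Co, 298 CPM ± 78.2 in FeEV and 357 CPM ± 115 in FoEV. HGFAC, the HGF activator, was named after its values were seen, with 11 reads in Co, 17 in FeEV and 42 in FoEV and means of 0.805, 1.14 and 2.22 CPM. It ranged from 0.337 to 1.29 CPM in Co and from 1.10 to 3.47 CPM in FoEV, and it was not tested.

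All 21 genes of MET signalling were in the filtered table, with a median log2 fold change of -0.074 in FoEV vs. Co, 8 of them higher and 13 lower. At an unadjusted edgeR p under 0.05, 1 was higher and 3 were lower, where 8.18% and 6.88% of all genes were. The kinase AKT1 had 63.5 CPM ± 9.70 in Co and 79.4 CPM ± 10.02 in FoEV, a log2 fold change of 0.32 (edgeR adjusted p = 0.196). PIK3CA and PIK3R1, the catalytic and regulatory subunits of phosphoinositide 3-kinase, had log2 fold changes of -0.26 and -0.28 (edgeR adjusted p = 0.257 and 0.192), and the adaptor CRK had -0.22 (edgeR adjusted p = 0.294). PIK3R1 had -0.28 in FeEV vs. Co as well, a comparison that uses the same Co libraries.

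The adaptor GRB2 had 52.8 CPM ± 2.58 in FeEV and 66.5 CPM ± 14.7 in FoEV, with a log2 fold change of 0.33 in FoEV vs. FeEV (edgeR adjusted p = 0.496). Without FoEV library 4, it was 0.19. The phosphatases PTPRJ and PTPN11 had the highest CPM of the list, with 344 CPM ± 44.2 and 254 CPM ± 27.8 in Co and 309 CPM ± 45.8 and 259 CPM ± 25.5 in FoEV.

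Of 10 substrates and partners of matriptase and prostasin, 7 were tested, and none had an unadjusted edgeR p under 0.05 in any comparison, with a median log2 fold change of 0.012 in FoEV vs. Co. ITGB1, an integrin subunit, had 349.7 CPM ± 12.6 in Co and 327 CPM ± 24.2 in FoEV. EPCAM, the epithelial adhesion molecule that matriptase cleaves, had 325 CPM ± 13.2 in Co and 334 CPM ± 49.8 in FoEV. SCNN1A, a subunit of the sodium channel that prostasin activates, had 55.3 CPM ± 10.3 in Co, 54.5 CPM ± 8.33 in FeEV and 55.8 CPM ± 8.36 in FoEV and was named after its values were seen. The 6 lists had 6, 4, 5, 2, 21 and 7 tested genes, which include the 5 members of the filtered table. In all lists together, 7 genes other than the members had an unadjusted edgeR p under 0.05 in FoEV vs. Co, 3 in FeEV vs. Co and 2 in FoEV vs. FeEV, where 15.1%, 4.15% and 8.52% of all genes did. Without Co library 4, the count for FoEV vs. Co was 4. For FeEV vs. Co, it was 5 without Co library 1 or 3 and 1 without Co library 4, Co library 5 or FeEV library 3. For FoEV vs. FeEV, it was 4 without FeEV library 1, FoEV library 3 or FoEV library 5 and 1 without FoEV library 1 or 4.

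**Figure D5:**
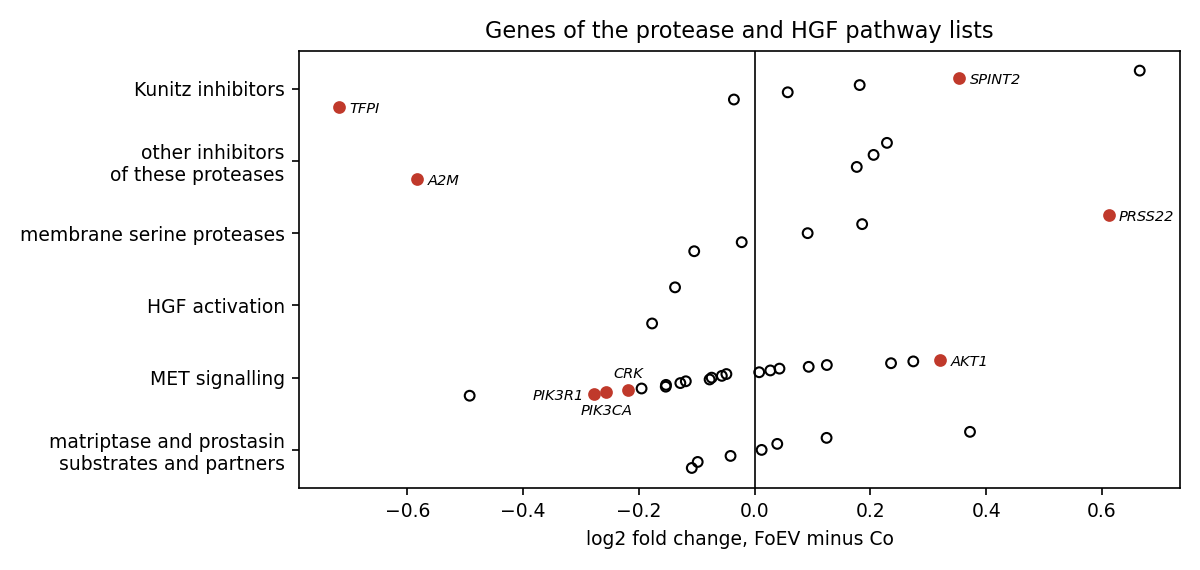
Fitted log2 fold change between FoEV and Co of each tested gene of the 6 lists, with genes at an unadjusted p under 0.05 filled and named. The filled points lie on both sides of 0, from TFPI at -0.72 to PRSS22 at 0.61, and none passed the adjusted threshold.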

How the data were processed

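Total RNA of 15 embryo pools was sequenced with single-end reads of 125 bases. The authors mapped the reads to the bovine assembly ARS-UCD1.2 and deposited counts of reads per NCBI gene without normalization. Their methods name QuasR Qcount for counting, whereas the processing notes of the submitters list Trim Galore 0.4.3.1, HISAT2 2.1.0 and featureCounts 1.6.3. The library kit selects a strand, but the strand setting of the counting is not given in the sources used here. Groups came from the sample titles. The authors' table filtered for low counts holds the same values as the unfiltered table for 10832 of its 34773 genes.

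Counts of the filtered table were scaled by TMM and compared by quasi-likelihood F tests in edgeR 4.0.16 and R 4.3.3 (estimateDisp, glmQLFit with robust=TRUE), with all 15 libraries in 1 fit and treatment as the only factor. P-values were adjusted over all genes, and the threshold was 0.05. TMPRSS2 and HGF were compared by two-sided exact permutation tests over 252 assignments in scipy 1.17.1. Alternatives were DESeq2 1.42.0, the robust dispersion of edgeR, other size factors, no filter, separate fits of 2 treatments, thinned counts, the replicate number as a block and fits without each library. The scripts were tested on simulated data. Gene symbols came from a RefSeq table of another build, so no coordinates are given, and 10709 of the 10832 identifiers matched. The members, gene lists and markers were chosen with earlier results of these data known. Genes named are the members, list genes with an unadjusted p under 0.05 in any comparison, the 2 with the highest level in each list and, by correlation, the 3 genes most like each member. No molecular identifiers are described for these counts, so that intervals of shares cover counting error only.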

Additional observations from a re-analysis of the deposited data

Results flagged for a closer look

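In 16 genes and 3 treatments, 48 groups of 5 libraries were searched for a library that stood apart from the other 4 by Dixon's criterion (gap over range above 0.71), which chance meets in about 1 in 20 groups, and 5 were found. SPINT2 had 86.7 CPM in Co library 4, where the other Co libraries had 104 to 108 CPM. ST14 had 145 CPM in FoEV library 1, beside 85.5 to 96.8 CPM in the others. MET had 215 CPM in Co library 2, beside 156 to 169.6 CPM. AKT1 had 80.2 CPM in Co library 1, beside 55.1 to 62.0 CPM. GRB2 had 92.5 CPM in FoEV library 4, beside 57.5 to 63.6 CPM. The cause was not tested in any of them.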

How the results depend on the processing

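SPINT2 kept its higher level in FoEV than in Co in all alternatives, with log2 fold changes of 0.34 (DESeq2) to 0.36 and adjusted p of 0.00844 to 0.210, and of 0.30 to 0.38 in the fits without 1 library, with edgeR adjusted p of 0.0543 to 0.283. It passed the threshold with DESeq2 (0.34) and with the robust dispersion (0.35), and was then the 1 member called. The number of genes called in FoEV vs. Co was 1 with the test reported, 144 with DESeq2, 311 with robust dispersion, 173 without a filter, 5 in a fit of both treatments alone, 5 with thinned counts and 0 to 58 without 1 library. In FeEV vs. Co it was 0, and 1, 6 and 13 with DESeq2, robust dispersion and no filter (0 to 0 without 1 library). In FoEV vs. FeEV it was 0, and 3, 31 and 22 (0 to 1 without 1 library). The cause was not tested.

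With the replicate number as a block, 57 genes were called in FoEV vs. Co and SPINT2 had 0.36 (edgeR adjusted p = 0.0638). Over all genes, deviations of same-number libraries had a mean correlation of 0.034 (FoEV vs. Co), 0.14 (FeEV vs. Co) and 0.19 (FoEV vs. FeEV). In the same order, 1, 3 and 3 of 5 pairs were over 0.1. Each library correlated best with its own number in 1, 2 and 2 of 5. No source says that the numbers mark shared cultures, and the test reported did not use them as pairs. The members differed in this. In FoEV vs. Co, the block changed the standard error from 0.29 to 0.12 for PRSS8, from 0.18 to 0.12 for ST14 and from 0.14 to 0.11 for SPINT1. For MET, it went from 0.103 to 0.092, and for SPINT2 from 0.085 to 0.088. No member passed the adjusted threshold with the block in FoEV vs. Co.

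Directions turned only for small differences. ST14 in FeEV vs. Co was 0.0059 with robust dispersion and 0.028 with thinned counts, and PRSS8 was -0.0058 with robust dispersion. Without 1 library, log2 fold changes in FeEV vs. Co ranged from -0.13 to 0.094 (SPINT1), -0.14 to 0.13 (ST14), -0.11 to 0.19 (PRSS8) and -0.022 to 0.11 (MET). PRSS8 ranged from -0.046 to 0.23 in FoEV vs. Co and from -0.11 to 0.20 in FoEV vs. FeEV. HGF differed by -0.25 to 0.090 CPM in FoEV vs. Co and TMPRSS2 by -0.13 to 0.43 CPM in FoEV vs. FeEV. With a coefficient of biological variation of 0.159 over all genes and 5 pools per treatment, small differences were not detectable.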

Other observations

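A search for likeness covered 6501 genes with a mean of at least 20 CPM in 15 libraries prepared with the same kit. For each member of the filtered table, the 3 genes whose log2 CPM varied most like it between pools of a treatment were found. For SPINT1 they were ERBB3 (r = 0.913), a receptor of the epidermal growth factor receptor family, SURF4 (r = 0.893), a cargo receptor of the secretory pathway, and LMNA (r = 0.882), the nuclear lamin A/C. For ST14 they were C18H19orf33 (r = 0.944), the adhesion molecule NECTIN2 (r = 0.936) and the deacetylase HDAC7 (r = 0.924). For PRSS8 they were ROMO1 (r = 0.927), EHD1 (r = 0.925) and SMPD3 (r = 0.923). For MET they were PAIP1 (r = 0.899), COQ7 (r = 0.891) and TFB1M (r = 0.854). For SPINT2, whose spread within treatments was close to the counting error, they were SLC25A39 (r = 0.852), COPS6 (r = 0.837) and TPRG1L (r = 0.789). No gene appears for more than 1 member, and these values are a description.

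TKDP1, a trophoblast Kunitz domain protein of ruminants, was chosen after its values were seen. It had 41.8 CPM ± 29.6 in Co, 32.8 CPM ± 10.3 in FeEV and 65.7 CPM ± 52.4 in FoEV (SD, n = 5), with ranges of 9.11 to 86.1 CPM in Co and 17.4 to 127 CPM in FoEV. Its log2 fold change in FoEV vs. Co was 0.67 (edgeR adjusted p = 0.646). Near-identical genes of this family may share reads, so that its level is uncertain.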
